A study of Mus musculus with 18 samples.

Results

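Selenop encodes selenoprotein P, the protein that the liver secretes into plasma to carry selenium to other organs. It was taken from 3 deposited tables as the row under its older symbol, Sepp1, and is 1 of the 23 selenoprotein genes that each table lists. The tables give, for livers of male mice, mRNA by RNA-seq of polyA RNA, and ribosome footprints, the short pieces of mRNA that a translating ribosome shields from nuclease. Footprints were counted separately 5' and 3' of the UGA codon that encodes selenocysteine, and the study used them to follow initiation and the reading of UGA as selenocysteine. Secisbp2 knockout livers carried Alb-Cre and Secisbp2 fl/fl alleles (2 libraries per assay), and Secisbp2 wild type livers (2 libraries) came from littermates with intact alleles. Trsp knockout livers carried Alb-Cre and Trsp fl/fl alleles (2 libraries) and so lacked the gene of the selenocysteine tRNA, and Trsp wild type livers (3 libraries) came from their littermates. Mice were 5 to 8 weeks old in all 4 groups. Alb-Cre, Cre recombinase under the albumin promoter, directs deletion mainly to hepatocytes, so most other cells of the liver should have kept the genes. In such bulk tissue, fewer cells of a type and less RNA per cell cannot be told apart.

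Selenocysteine is inserted at UGA, which otherwise stops translation, when the selenocysteine tRNA is brought to the ribosome with the help of a hairpin in the 3' untranslated region of the mRNA, the SECIS element, and of SECISBP2, the protein that binds it. Selenop differs from other selenoproteins in holding several UGA codons, an early one and a cluster near the end of the coding sequence, and its mRNA carries a pair of SECIS elements. Hepatocytes are the main source of the plasma protein. A ribosome that fails to read the UGA as selenocysteine can end there, and footprints 3' of it come from ribosomes that got past.

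The tables hold RPKM values, reads scaled to window length and to the depth of the library. Because the values were whole multiples of what a single read is worth, the reads behind them and the window lengths could be worked out. The Selenop values fitted windows of 144 nt 5' of the UGA and 950 nt 3' of it, which is 6.60 times as long, and 2030 nt for mRNA. Which of the UGA codons divides the windows is not stated in the labels or tables, nor whether the 3' window holds later UGA codons. The 5' window is the shorter one, as it would be for the early UGA. Selenop had 20777 to 105049 RNA reads per library, 636 to 3769 footprints in the 5' window and 508 to 9244 in the 3' window. Libraries differed in depth, from 6522357 to 36510084 reads for RNA-seq and from 5065579 to 20645294 for footprints. Neither Secisbp2 nor Trsp, nor any of 12 marker genes of liver cell types, has a row in the tables, so the deletions and the tissue were not checked here. The library codes place Secisbp2 knockout, Secisbp2 wild type and all Trsp livers in 3 separate sets, so for Secisbp2 the genotype cannot be told apart from the set. Labels state 3 mice per background, and groups hold 2 or 3 libraries. The limma p-values given below rest on the spread between libraries within groups, pooled over the 4 groups and moderated across the genes tested.

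Selenop mRNA was lower in both knockouts, and more so without Secisbp2. In Secisbp2 knockout livers it stood at 366 and 285 RPKM, against 1569 and 1918 RPKM in Secisbp2 wild type livers. Trsp knockout livers had 696 and 673 RPKM, against 2158, 1854 and 2265 RPKM in Trsp wild type livers. All 4 knockout libraries lay below all 5 wild type libraries, and the Secisbp2 knockouts were the lowest of the 9. The same values can be rescaled to shares of the RNA library reads worked out from the RPKM, which adds no separate measurement. Selenop then made up 0.0744% and 0.0578% in Secisbp2 knockouts, against 0.319% and 0.389% in Secisbp2 wild types. In Trsp knockouts its share was 0.141% and 0.137%, against 0.438%, 0.376% and 0.460% in Trsp wild types.

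Group means were 326 ± 57.6 RPKM in Secisbp2 knockout and 1744 ± 247 RPKM in Secisbp2 wild type livers (SD, n = 2 each), so that 18.7% of the wild type level was left. They were 684 ± 16.1 RPKM in Trsp knockout (SD, n = 2) and 2092 ± 213 RPKM in Trsp wild type livers (SD, n = 3), which leaves 32.7%. On the scale of log2(RPKM + 0.5), the Secisbp2 knockout change had a limma 95% interval of -2.80 to -2.05 and the Trsp knockout change one of -1.95 to -1.27, and both passed at an adjusted p below 0.05. By the same limma test, 50% of the 20 genes tested were lower in Secisbp2 knockouts and 70% in Trsp knockouts. The Secisbp2 effect was larger than the Trsp effect by -0.82 on the log2 scale (95% interval -1.32 to -0.31, limma adjusted p = 0.00985). In that comparison 35% of the genes tested were called in this direction.

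Footprints in the 5' window, which count ribosomes that have not yet met the dividing UGA, were lower in both knockouts, and again more so without Secisbp2. Their density was 346 and 214 RPKM in Secisbp2 knockout livers, against 1481 and 1920 RPKM in Secisbp2 wild type livers. It was 759 and 847 RPKM in Trsp knockout livers, against 1502, 1484 and 1664 RPKM in Trsp wild type livers. The groups did not overlap in either pair, and again both Secisbp2 knockouts were below both Trsp knockouts. Secisbp2 knockouts kept 16.5% of the wild type mean and Trsp knockouts 51.8%.

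The 5' change in Secisbp2 knockouts had a 95% interval of -3.27 to -1.99 on the log2 scale and passed, as did 45% of the 20 genes tested in that direction. In Trsp knockouts the change of -0.95 (95% interval -1.53 to -0.37, limma adjusted p = 0.0130) passed, as did 55% of the genes tested in that direction. That call did not hold without Trsp knockout replicate 1 (-0.87, limma adjusted p = 0.0768) or without Trsp knockout replicate 2 (-1.03, adjusted p = 0.0546). Nor did it hold with replicate number as a block, or with libraries scaled to the median ratio of the other genes (-0.23, limma adjusted p = 0.556). The 2 effects differed by -1.68 (95% interval -2.55 to -0.82, limma adjusted p = 0.00731). Of the genes tested, 25% were called in that direction and 30% in the other.

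**Figure D1:**
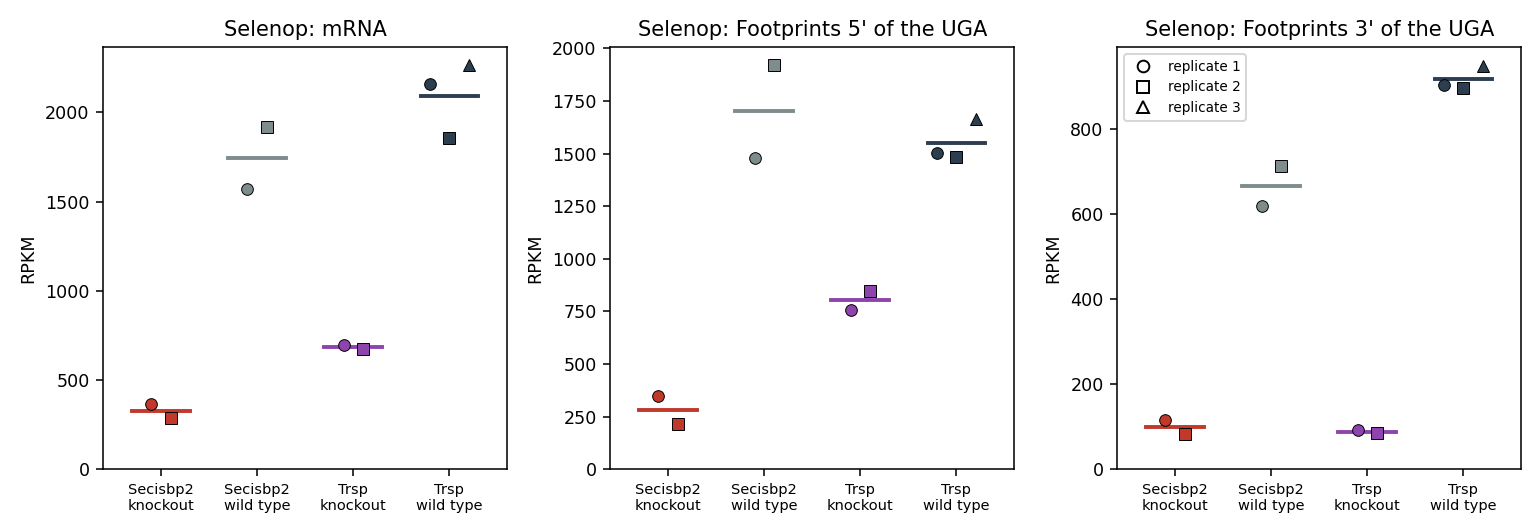
Selenop mRNA, footprints 5' of the UGA and footprints 3' of the UGA in RPKM (vertical axes, linear from 0) for each library, by group; points are libraries, with their shape giving the replicate number, and bars are group means. Every knockout point lies below every wild type point of its own pair, and the 3' footprints of the 2 knockouts lie at like levels (100.2 ± 23.4 RPKM for Secisbp2 and 88.7 ± 3.98 RPKM for Trsp, SD, n = 2 each) although their mRNA does not.

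Footprints in the 3' window come from ribosomes that have passed the dividing UGA, and per length they were the lowest of the 3 measurements in every library. Secisbp2 knockout livers had 117 and 83.7 RPKM, against 620 and 714 RPKM in Secisbp2 wild type livers. Trsp knockout livers had 91.5 and 85.8 RPKM, against 906, 898 and 950 RPKM in Trsp wild type livers. Knockouts and wild types were far apart in both pairs, while the 2 knockouts overlapped each other. The 3' density kept 15.0% of the wild type mean in Secisbp2 knockouts and 9.66% in Trsp knockouts. Behind these values stood 2179 and 1642 footprints in Secisbp2 knockouts and 508 and 657 in Trsp knockouts.

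The 3' change was -2.74 on the log2 scale in Secisbp2 knockouts (95% interval -3.43 to -2.06, limma adjusted p = 2.08e-05) and -3.37 in Trsp knockouts (95% interval -3.99 to -2.74, limma adjusted p = 8.33e-07). Of the 12 genes tested in this window, 75% were lower in Secisbp2 knockouts and 83.3% in Trsp knockouts. The difference between the 2 effects, 0.62 (95% interval -0.30 to 1.55, limma adjusted p = 0.249), did not pass, and 25% of the genes passed in that direction. Its interval reaches from a slightly larger loss in Secisbp2 knockouts to a clearly larger loss in Trsp knockouts.

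The 3' to 5' ratio of footprint density within a library cancels changes in mRNA or initiation that act alike on both windows. It was lower in the Trsp knockouts than in every other library. In bulk liver the ratio mixes hepatocytes with cells that may have kept the genes, and the part of those cells was not tested. In Secisbp2 knockout livers the ratio was 0.337 and 0.391, against 0.419 and 0.372 in Secisbp2 wild type livers. In Trsp knockout livers it was 0.121 and 0.101, against 0.603, 0.605 and 0.571 in Trsp wild type livers. Values of the first pair overlapped, and those of the second pair were separated by a wide gap. Exact (Clopper-Pearson) 95% intervals from the reads, which cover counting error only, ran from 0.313 to 0.364 and from 0.357 to 0.430 for the Secisbp2 knockouts and from 0.107 to 0.136 and from 0.0916 to 0.112 for the Trsp knockouts.

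In reads, the 3' window held the larger part in all but the Trsp knockouts. In Secisbp2 knockouts 69.0% and 72.1% of all Selenop footprints fell in the longer 3' window, against 73.4% and 71.0% in Secisbp2 wild types. In Trsp knockouts 44.3% and 40.1% did, against 79.9%, 80.0% and 79.0% in Trsp wild types. The Secisbp2 pair overlapped, and the Trsp pair did not.

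On the log2 scale the ratio changed by -2.42 in Trsp knockouts (95% interval -2.97 to -1.87, limma adjusted p = 0.000109), to 18.7% of the wild type mean. Of the 12 genes tested 75% were lower there. In Secisbp2 knockouts the change was -0.11 (95% interval -0.72 to 0.49, limma adjusted p = 0.726), which did not pass, while 25% of the genes tested were lower. That interval runs from 60.8% to 140% of the wild type ratio, so a moderate loss or gain was not detectable with 2 libraries a group. Set against Trsp wild type livers instead of their own littermates, the Secisbp2 knockouts changed by -0.70 (limma adjusted p = 0.0590). The Secisbp2 effect was higher than the Trsp effect by 2.30 (95% interval 1.48 to 3.12, limma adjusted p = 0.00120), and 33.3% of the genes tested were called in that direction.

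**Figure D2:**
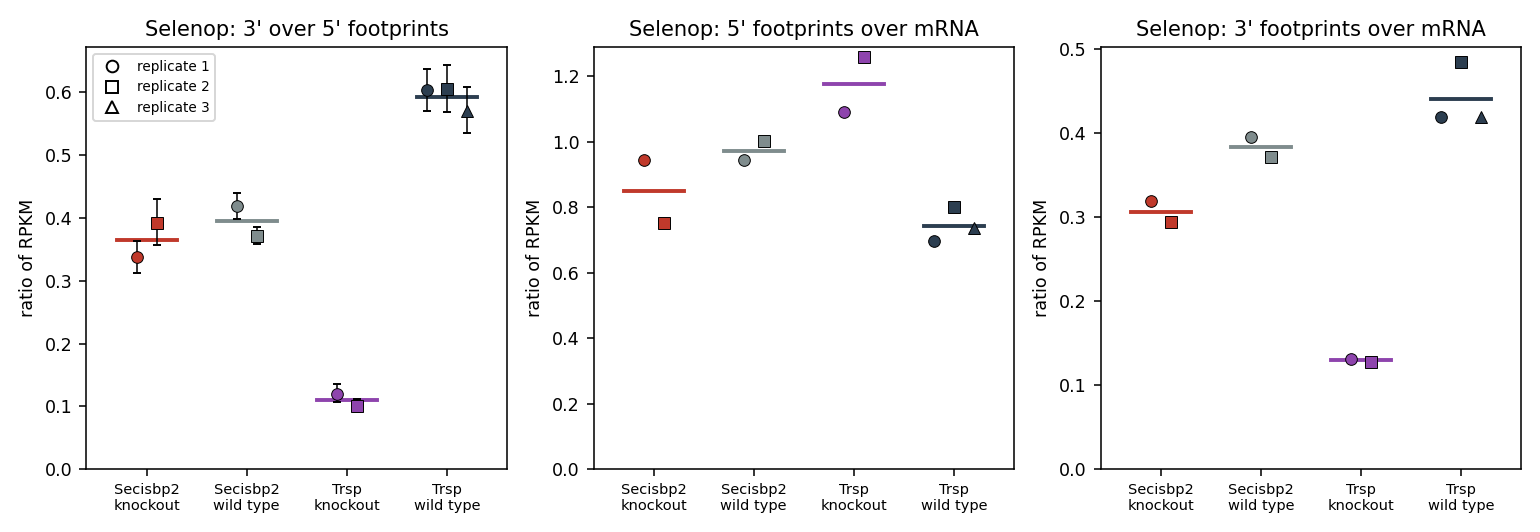
Ratios of Selenop RPKM values by group (vertical axes, linear from 0): 3' over 5' footprints, 5' footprints over mRNA and 3' footprints over mRNA; points are libraries or libraries with the same replicate number, bars are group means, and whiskers in the left panel are exact 95% counting intervals. The 3' over 5' ratio of the Trsp knockouts stands at 0.121 and 0.101, below all other libraries, while the Secisbp2 knockouts share the range of their wild types.

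Footprint density 5' of the UGA per mRNA depends on how many ribosomes had started on each message and on how long they stayed in the window. These parts were not told apart here. With libraries matched by replicate number, 5' footprint RPKM over mRNA RPKM was 0.945 and 0.751 in Secisbp2 knockouts, against 0.944 and 1.00 in Secisbp2 wild types. It was 1.09 and 1.26 in Trsp knockouts, against 0.696, 0.800 and 0.735 in Trsp wild types. The first pair overlapped, and both Trsp knockouts stood above every other library. Means were 0.848 ± 0.137 and 0.972 ± 0.0402 in Secisbp2 knockout and wild type livers (SD, n = 2 each), and 1.18 ± 0.119 (SD, n = 2) and 0.744 ± 0.0527 (SD, n = 3) in Trsp knockout and wild type livers.

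The limma interaction fits treated RNA and footprint libraries as independent, though the labels do not say whether they share livers. As a limma interaction of assay and genotype, the Trsp knockout change in 5' footprints over mRNA was 0.66 on the log2 scale (95% interval 0.03 to 1.29, limma adjusted p = 0.138) and did not pass. It was the third highest of 20 genes tested, of which 2 (10%) passed, both lower. With only the Trsp groups in the fit the same value passed (0.66, limma adjusted p = 0.0283), as it did when the ratio was formed within replicate numbers (0.66, adjusted p = 0.0376). In Secisbp2 knockouts the change was -0.21 (95% interval -0.89 to 0.48, limma adjusted p = 0.755), and 1 of 20 genes (5%) passed.

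Footprints past the UGA per mRNA combine the 5' footprints over mRNA with the 3' to 5' ratio. They were 0.319 and 0.294 in Secisbp2 knockouts, against 0.395 and 0.372 in Secisbp2 wild types. In Trsp knockouts they were 0.131 and 0.128, against 0.420, 0.484 and 0.419 in Trsp wild types. Knockouts lay below wild types in both pairs, by a small step for Secisbp2 and by a large step for Trsp. The Trsp change was -1.76 (95% interval -2.37 to -1.15, limma adjusted p = 4.32e-05), with 83.3% of 12 genes lower, and the Secisbp2 change of -0.32 (95% interval -0.99 to 0.35, limma adjusted p = 0.429) did not pass, with 33.3% of genes lower.

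The effects on 3' footprints over mRNA differed by 1.44 (95% interval 0.53 to 2.34, limma adjusted p = 0.0143), where 58.3% of the genes were called in that direction. The call did not hold without Secisbp2 wild type replicate 2 (1.39, limma adjusted p = 0.0505) or without Trsp knockout replicate 2 (1.42, adjusted p = 0.0534).

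These log2 values add up, since the 3' density is the mRNA level times 5' footprints over mRNA times the 3' to 5' ratio. The ratio is not a share of ribosomes, since it can exceed 1 (1.29 for Gpx1 in Secisbp2 knockout replicate 1). For Secisbp2 knockouts the 3' change of -2.74 was made of -2.42 in mRNA, -0.21 in 5' footprints over mRNA and -0.11 in the 3' to 5' ratio. For Trsp knockouts the 3' change of -3.37 was made of -1.61 in mRNA, 0.66 in 5' footprints over mRNA and -2.42 in the 3' to 5' ratio. By this sum the mRNA term was the largest of the 3 without Secisbp2, and the 3' to 5' term was the largest without Trsp.

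**Figure D3:**
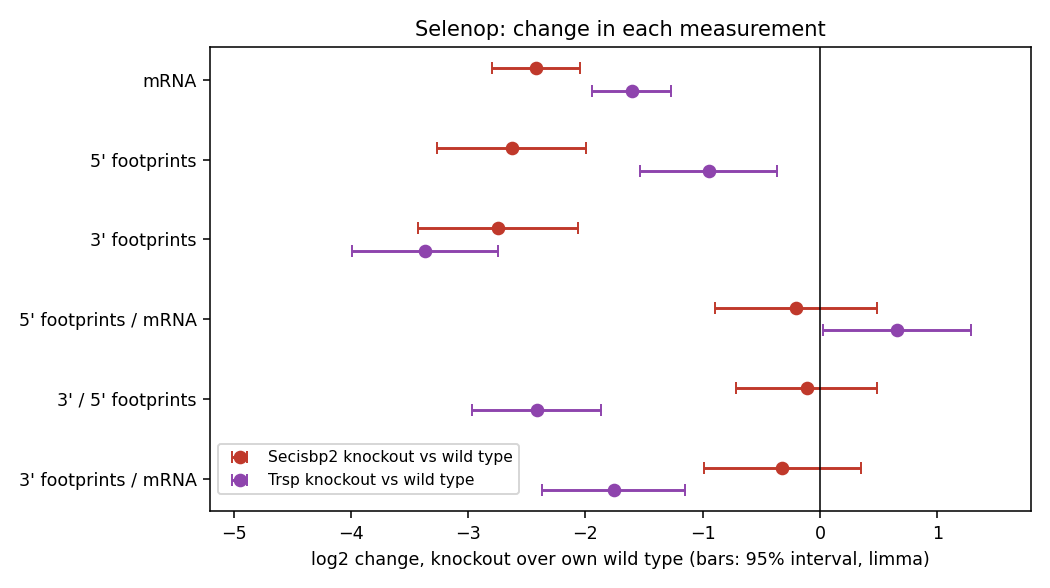
Log2 change of Selenop (horizontal axis, knockout over its own wild type) in mRNA, in footprints and in their ratios, with limma 95% intervals as bars; Secisbp2 knockout is drawn above Trsp knockout in each row. The intervals of the 3' over 5' ratio are apart (-0.72 to 0.49 for Secisbp2 and -2.97 to -1.87 for Trsp), while those of the 3' footprints overlap.

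A test of Selenop alone, which borrows no spread from other genes, permuted genotype within each colony over 60 label orders, for which the smallest possible p is 0.0167. Averaged over both knockouts, all 4 knockout livers together differed from their wild types by -2.02 in mRNA, -1.79 in 5' footprints and -3.05 in 3' footprints (exact permutation test, two-sided, p = 0.0167 each, adjusted p = 0.025 over 6 quantities). The same test gave -1.04 for 3' footprints over mRNA (exact p = 0.0167, adjusted p = 0.025) and -1.27 for the 3' to 5' ratio (exact p = 0.0333, adjusted p = 0.04). By limma, the Trsp changes in these quantities were -1.76 and -2.42, and the Secisbp2 changes of -0.32 and -0.11 did not pass. For 5' footprints over mRNA the permutation test gave 0.23 (exact p = 0.267), where the means of the 2 knockouts lie on opposite sides of their wild types.

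Across the 4 groups the order of mRNA, low to high, was Secisbp2 knockout, Trsp knockout, Secisbp2 wild type and Trsp wild type, and only the 2 wild types overlapped. The 5' density had the same order except that the wild types, which overlapped, changed places. For the 3' density it was Trsp knockout and Secisbp2 knockout, which overlapped, then Secisbp2 wild type and Trsp wild type, each apart from the next. For the 3' to 5' ratio the order was Trsp knockout, Secisbp2 knockout, Secisbp2 wild type and Trsp wild type, with an overlap of the Secisbp2 groups alone.

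The wild type livers of the 2 colonies stood apart in the 3' to 5' ratio, though not beyond the limma threshold. The ratio averaged 0.395 ± 0.0332 in Secisbp2 wild types (SD, n = 2) and 0.593 ± 0.0193 in Trsp wild types (SD, n = 3), with no overlap between the libraries. The change was -0.59 on the log2 scale (95% interval -1.14 to -0.04), which did not pass after adjustment (limma adjusted p = 0.159, 8.33% of 12 genes lower). The 3' density was also lower in each Secisbp2 wild type (-0.46, limma adjusted p = 0.272, 16.7% of genes lower), whereas mRNA (-0.27, limma adjusted p = 0.159) and 5' footprints (0.12, adjusted p = 0.732) overlapped. Colony and library set cannot be told apart here.

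Selenop was among the most abundant selenoprotein messages in every liver by RPKM, and its share of them was lower in knockouts. It made up 22.7% and 20.5% of the summed mRNA RPKM of the 23 genes in Secisbp2 knockouts, against 30.3% and 35.1% in Secisbp2 wild types. It made up 30.9% and 30.8% in Trsp knockouts, against 36.3%, 33.2% and 36.1% in Trsp wild types. The shares were apart in both pairs and were not tested, and in each library Selenop ranked first or second by mRNA RPKM.

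In 5' footprints the Selenop share was 21.6% and 16.9% in Secisbp2 knockouts, against 32.1% and 37.5% in Secisbp2 wild types. It was 36.1% in each Trsp knockout, against 33.3%, 18.9% and 37.6% in Trsp wild types. The low value belongs to Trsp wild type replicate 2, where Gpx1 alone had 4340 RPKM in the 5' window, against 1275 and 1020 RPKM in the other Trsp wild types. The Selenop 5' density of that library, 1484 RPKM, was close to that of replicate 1.

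**Figure D4:**
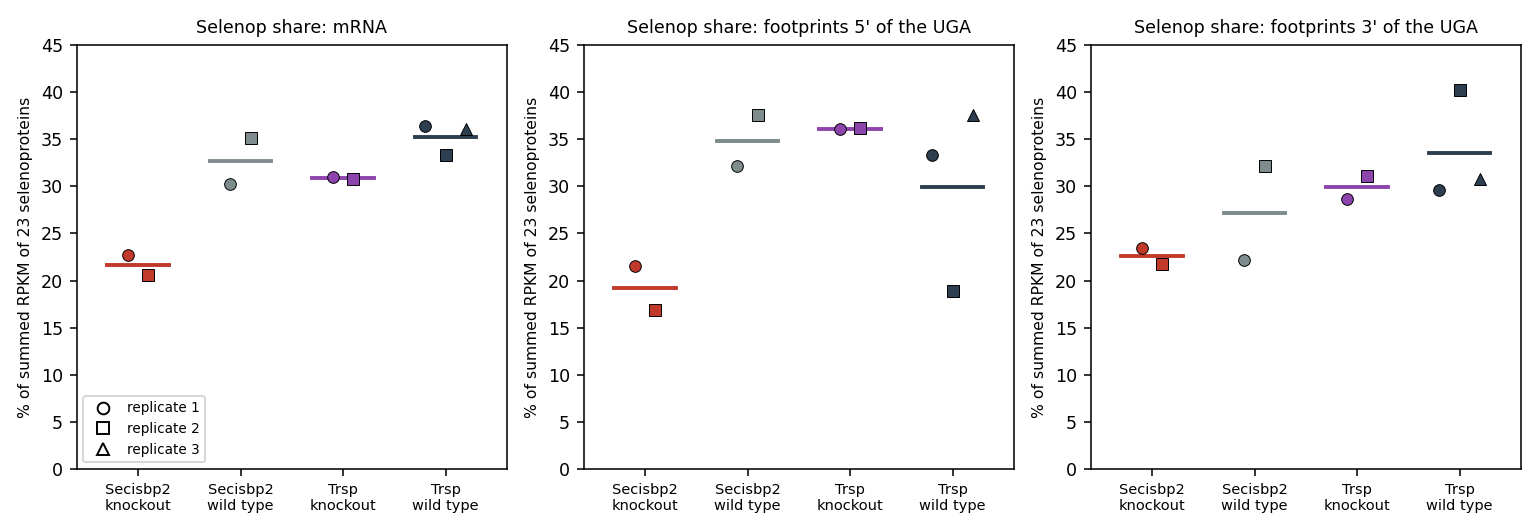
Share of Selenop in the summed RPKM of the 23 selenoprotein genes (vertical axes, percent, linear from 0) for mRNA, 5' footprints and 3' footprints in each library; points are libraries and bars are group means. Secisbp2 knockouts hold the lowest mRNA shares, 22.7% and 20.5%, and Trsp wild type replicate 2 stands apart in the 5' panel at 18.9%.

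Set among the other selenoproteins, Selenop mRNA lost more than most. In Secisbp2 knockouts 9 of the 19 other genes tested were lower and 4 higher, with a median log2 change of -0.30, and only Gpx1 and Dio1 fell by more than Selenop. In Trsp knockouts 13 were lower and 1 higher, with a median of -0.62, and Gpx1, Selenow and Selenok fell by more, while Gpx2 was the gene that was higher. For the 3' to 5' ratio in Secisbp2 knockouts, 3 of 11 other genes were lower, Gpx4 (-1.82), Selenof (-1.89) and Sephs2 (-1.29), and the median was -0.66, against -0.11 for Selenop. In Trsp knockouts 8 of 11 were lower with a median of -1.66, against -2.42 for Selenop. Some of these genes had few 5' footprints over all libraries (Gpx3 23, Selenow 41 and Selenoh 49), against 13229 for Selenop. If later UGA codons lie in the Selenop 3' window, its ratio is not like that of genes with 1 UGA.

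**Figure D5:**
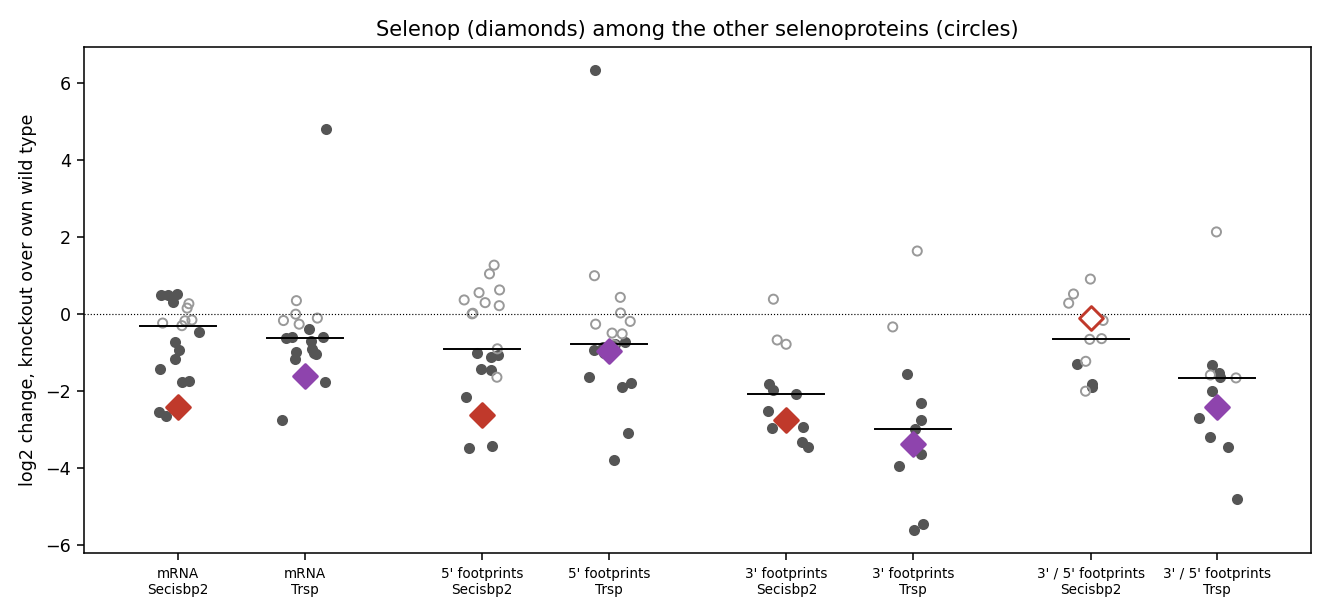
Log2 change, knockout over its own wild type (vertical axis), of Selenop (diamonds) and of the other selenoproteins tested (circles) in mRNA, 5' footprints, 3' footprints and the 3' over 5' ratio; filled symbols passed a limma adjusted p of 0.05, open ones did not, and bars are medians of the other genes. The open Selenop diamond of the 3' over 5' ratio in Secisbp2 knockouts, at -0.11, lies above the median of -0.66, and in Trsp knockouts Selenop, at -2.42, lies below the median of -1.66.

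Gpx1 is the cytosolic peroxidase whose mRNA is known as the most sensitive of the liver to selenium supply. Its mRNA averaged 326 ± 58.1 RPKM in Secisbp2 knockouts and 2020 ± 13.9 RPKM in Secisbp2 wild types (SD, n = 2 each). In Trsp knockouts it averaged 307 ± 12.5 RPKM (SD, n = 2), and in Trsp wild types 2079 ± 105 RPKM (SD, n = 3). Its log2 changes in Secisbp2 and Trsp knockouts were -2.64 and -2.76 by limma, beside -2.42 and -1.61 for Selenop. The Gpx1 3' to 5' ratio was 1.29 and 0.880 in Secisbp2 knockouts, against 0.887 and 0.621 in Secisbp2 wild types, and 0.244 and 0.155 in Trsp knockouts, against 1.04, 0.173 and 1.35 in Trsp wild types.

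Gpx3, the other selenoprotein of plasma, is made mainly in the kidney, and its mRNA was near 1 RPKM in every group. Its mean was 1.17 ± 0.214 RPKM in Secisbp2 knockouts and 1.58 ± 0.519 RPKM in Secisbp2 wild types (SD, n = 2 each), and its log2 change passed the limma test in neither knockout (-0.30, adjusted p = 0.166 for Secisbp2, and -0.0049, adjusted p = 0.976 for Trsp). Of 8 selenoproteins of the secretory pathway tested for mRNA, 3 were lower (Dio1, Selenos and Selenof) and 2 higher (Selenoi and Selenot) in Secisbp2 knockouts, and 5 were lower in Trsp knockouts (Dio1, Selenoi, Selenok, Selenot and Selenof). Over all 20 genes tested, 50% were lower and 20% higher in Secisbp2 knockouts and 70% were lower in Trsp knockouts, so these counts are near or below the overall share. Sephs2, the selenoprotein that makes the selenium donor for selenocysteine, was the sole supply gene in the tables, and its mRNA changed by -1.75 in Secisbp2 knockouts and -0.90 in Trsp knockouts by limma.

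The mRNAs known to follow selenium supply, Gpx1, Selenow, Selenoh and Msrb1, were lower in both knockouts, 4 of 4 in each, with medians of -1.45 and -1.18, beside overall shares of 50% and 70% lower. Of 4 housekeeping selenoproteins, Gpx4 was lower and Selenoi and Txnrd1 higher in Secisbp2 knockouts, and Selenoi, Txnrd1 and Txnrd2 were lower in Trsp knockouts, where 3 of 4 is near the overall share of 70%. The housekeeping medians were 0.16 in Secisbp2 knockouts and -0.54 in Trsp knockouts, and Selenop, at -2.42 and -1.61, lay below the medians of both lists.

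The genes whose mRNA ran closest to Selenop over the 9 libraries, by the root mean square difference of centred log2 values, were Selenow (0.41), Gpx1 (0.52) and Dio1 (0.55) of 19 compared. Dio1 encodes the deiodinase that activates thyroid hormone in liver. Its mRNA stood at 10.7 and 6.06 RPKM in Secisbp2 knockouts, against 57.9 and 42.0 RPKM in Secisbp2 wild types, and at 46.2 and 39.7 RPKM in Trsp knockouts, against 91.9, 109 and 91.0 RPKM in Trsp wild types. In 5' footprints the closest were Sephs2 (0.45), Dio1 (0.47) and Selenof (0.49) of 19, and in 3' footprints Dio1 (0.35), Selenow (0.35) and Gpx4 (0.39) of 11. These distances are a description over 9 libraries that share depth and scaling across genes.

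The Dio1 3' to 5' ratio stood in Secisbp2 knockouts at 0.268 and 0.206, against 0.173 and 0.125 in Secisbp2 wild types (log2 change 0.90, limma adjusted p = 0.0597, not passed). In Trsp knockouts it was 0.0432 and 0.0504, against 0.265, 0.212 and 0.196 in Trsp wild types (-1.99, limma adjusted p = 0.000548). It rests on 18 and 10 footprints 3' of the UGA in the Secisbp2 knockouts and on 5 and 6 in the Trsp knockouts, far fewer than for Selenop. Among the 12 genes with a ratio, Selenop ranked between sixth and eighth from the top in 8 of 9 libraries, and second in Trsp wild type replicate 2.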

How the data were processed

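Livers of 4 groups were profiled by RNA-seq and ribosome profiling, with 18 libraries in all. For profiling, RNase I cut the lysate and monosomes were spun through 50% sucrose, and pieces of 20 to 40 nt became libraries read for 50 cycles, per the labels' protocols. The submitters' processing notes name Bowtie 0.12.8 and the mm9 build. Each of the 3 tables holds RPKM values that the authors computed and deposited, for mRNA and for footprints on either side of the UGA, per the file headers. The sources used here do not give how windows were set or how reads shared between genes were treated. Coordinates are not printed, because the gene table used for names is of another build. Of 23 genes, 11 kept their symbol and 12 were matched by a synonym. A cell of Selenof that held a date was read back as its number and does not touch Selenop.

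All 203 RNA, 184 5' and 128 3' values above 0 were within 0.02 of whole reads, which the recovery itself required. Lengths quoted are the smallest that make reads whole. Intervals for the 3' to 5' ratio are exact 95% binomial intervals of the reads. Values were log2(RPKM + 0.5), which understates changes of low genes, and genes averaging 1 RPKM or more were fitted with limma 3.58.1 (R 4.3.3) with all 4 groups in a single fit and Benjamini-Hochberg adjustment over the genes tested. Selenop alone was tested by exact permutation within colonies (scipy 1.17.1 and numpy 2.4.6 in Python 3.11.15). The fits were tested on simulated data. The named genes were Selenop, its 3 nearest genes in each table, Gpx1, Gpx3 and the members of fixed lists that passed. Selenop, the lists and the tests were chosen with earlier results of these data known. Alternatives were the pseudocounts 0.1 and 1, no filter, replicate number as a block, other scalings, weights and wild types, and leaving out each library.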

Additional observations from a re-analysis of the deposited data

Results flagged for a closer look

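For 4 quantities the 2 knockouts changed Selenop by different amounts, as tested by the difference between their effects in limma. Selenop mRNA lost more in Secisbp2 knockouts than in Trsp knockouts (Secisbp2 effect minus Trsp effect -0.82 on the log2 scale, adjusted p = 0.00985), and so did footprints 5' of the UGA (-1.68, adjusted p = 0.00731). The 3' to 5' ratio lost less in Secisbp2 knockouts (2.30, adjusted p = 0.00120), as did footprints 3' of the UGA over mRNA (1.44, adjusted p = 0.0143). The part of the library sets in these differences cannot be told apart from that of genotype, since the 2 Secisbp2 groups came from separate sets. Groups of 2 or 3 libraries are too small for a check on single outlying samples.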

How the results depend on the processing

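For the comparisons of Selenop, under alternatives other than leaving out a library, 195 values kept their direction and their side of the threshold, 7 lost the call, 2 gained it and 2 turned sign. With a library left out 211 kept them, 4 lost the call and 1 turned. The cause was not tested for those given next. The Trsp knockout change in 5' footprints was -0.90 with replicate number as a block (limma adjusted p = 0.0509), -0.23 with libraries scaled to the median ratio of the other genes (adjusted p = 0.556), and -1.03 to -0.87 with a library left out. That scaling moves knockout against wild type by -0.39 (Secisbp2) and -0.51 (Trsp) in mRNA and by -0.58 and -0.72 in footprints, and its base is selenoproteins that changed too. Scaled, Selenop mRNA changed by -2.04 and -1.10. Scaled permutation values were -1.57 for mRNA (exact adjusted p = 0.05), -1.14 for 5' (adjusted p = 0.08), -2.40 for 3' (adjusted p = 0.05), -1.27 for the 3' to 5' ratio (adjusted p = 0.0667) and -0.84 for 3' over mRNA (adjusted p = 0.075). The Secisbp2 knockout change in 5' over mRNA turned to 0.027 with wild types pooled and to 0.18 against Trsp wild types, and that of Trsp knockouts passed at 0.66 with only its own groups (limma adjusted p = 0.0283) or by replicate number (adjusted p = 0.0376). The difference of effects in 3' over mRNA ran from 1.37 to 1.495, and the wild type contrast in 5' footprints from -0.063 to 0.31, with a library left out. Genes called varied in 5' footprints of Trsp knockouts (12, down to 7), in the 3' to 5' ratio of Secisbp2 knockouts (3, from 0 to 5), in 5' over mRNA (1, from 0 to 3, and 2, from 0 to 4) and in 3' over mRNA of Secisbp2 knockouts (4, from 1 to 6). The labels do not say that equal replicate numbers share an animal, and same-numbered libraries correlated from -0.44 to 0.67. The block changed no other call of Selenop. Each Selenop value rests on at least 508 reads.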
